A study of Mus musculus with 6 samples.

Results

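The genes described here are the glucocorticoid receptor *Nr3c1*, the mineralocorticoid receptor *Nr3c2* and 6 genes known to respond to glucocorticoids, *Fkbp5*, *Sgk1*, *Tsc22d3*, *Zbtb16*, *Cdkn1a* and *Pdk4*. They were found by matching the Ensembl identifiers of the deposited expression table to these symbols in GENCODE M21. All 8 were present, 8 of the 18254 genes in the table, and all 8 passed the filter on low values. The rule used no measured value, but the genes and the lists below were chosen with earlier results of these data known. Shares of them that were called are therefore descriptions and not tests. The samples came from the medial prefrontal cortex (mPFC) of male mice on a C57BL/6J background aged 10 to 12 weeks. *Shank3* TG mice carry a transgene for *Shank3*, a scaffold protein of excitatory synapses, fused to enhanced green fluorescent protein, and the WT mice were their littermates. RNA of 2 mice of a genotype was pooled into each library, giving 3 TG libraries (TG-1 to TG-3) and 3 WT libraries (WT-1 to WT-3). No hormone, stress or drug treatment separates the groups, and the sources used here give no corticosterone level and no time of tissue collection.

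Corticosterone, the main glucocorticoid of the mouse, crosses the cell membrane and binds both receptors. In brain the mineralocorticoid receptor binds it with high affinity, and the glucocorticoid receptor is occupied mainly when the hormone is high, as in stress or at the daily peak. The unbound glucocorticoid receptor is held in the cytoplasm by heat shock protein 90 and its partners. After binding hormone it moves to the nucleus, attaches to DNA as a pair at inverted repeats and raises or lowers transcription. FKBP5, SGK1 and TSC22D3 (also called GILZ) are among the genes it is best known to induce, and FKBP5 in turn lowers the receptor's affinity for hormone.

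The *Shank3* row was checked first. Its normalized count was 17470, 19004 and 16310.4 in TG-1 to TG-3 and 8374, 8173 and 6791 in WT-1 to WT-3, so the groups lay far apart (log2 fold change 1.18 ± 0.10 (SE), n = 3 and 3). The genotype fit in limma gave it an adjusted p = 0.0643, and blocking on the replicate number brought this to 0.000437. Library totals lay between 28363967 and 29447717 normalized counts. The samples carry replicate numbers 1 to 3. The study's methods describe the WT and TG RNA samples as pairs and the WT mice as littermates of the TG mice. They do not say what a number marks. Deviations from the genotype mean correlated across genes at 0.62 between TG-3 and WT-3, and at 0.30 and 0.33 for numbers 1 and 2. Numbers 1 and 2 were little told apart, at 0.27 for TG-1 with WT-2 and 0.23 for TG-2 with WT-1. The 2 libraries numbered 3 stood apart from the other 4: 1445 genes were higher and 1224 lower in them at an adjusted p under 0.05, against 105 higher and 218 lower in the libraries numbered 2. The defining markers of cortical tissue were present: the 6 of excitatory neurons summed to between 159545 and 191011 normalized counts per library and the 8 of astrocytes to between 126444 and 149228. Because each library is bulk tissue, fewer cells of a type and less RNA per cell cannot be told apart.

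Compared per kilobase of annotated exon, *Tsc22d3*, *Sgk1* and *Nr3c1* were the most abundant of the 8 genes and *Fkbp5* the least. *Tsc22d3*, a leucine zipper protein that restrains inflammatory transcription factors, averaged 433 normalized counts per kb over the 6 libraries (range 352 to 512). *Sgk1*, a kinase that controls ion channels and transporters, averaged 395 (325 to 485), and *Nr3c1* averaged 388 (288 to 518). The ranges of these 3 genes overlapped, so their order is not fixed by the data. *Zbtb16*, a zinc finger repressor of transcription, followed at 302 per kb (262 to 320.3), overlapping *Nr3c1* but not *Sgk1*. *Cdkn1a*, the cell cycle inhibitor p21, averaged 237 per kb (215 to 284) and overlapped *Zbtb16*. Then came *Nr3c2* at 122 per kb (95.3 to 141), *Pdk4*, a kinase that switches off the pyruvate dehydrogenase complex, at 105 (88.9 to 121), and *Fkbp5*, a co-chaperone of heat shock protein 90, at 68.6 (50.1 to 87.6). *Nr3c2* lay below every library's *Cdkn1a* and overlapped *Pdk4*, whereas *Fkbp5* lay below *Pdk4* without overlap. Among the 16714 genes tested, these levels ran from the 39.8th percentile for *Fkbp5* to the 81.8th for *Tsc22d3*. The length used was the union of annotated exons, so a gene expressed from short transcripts is understated on this scale.

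**Figure D1:**
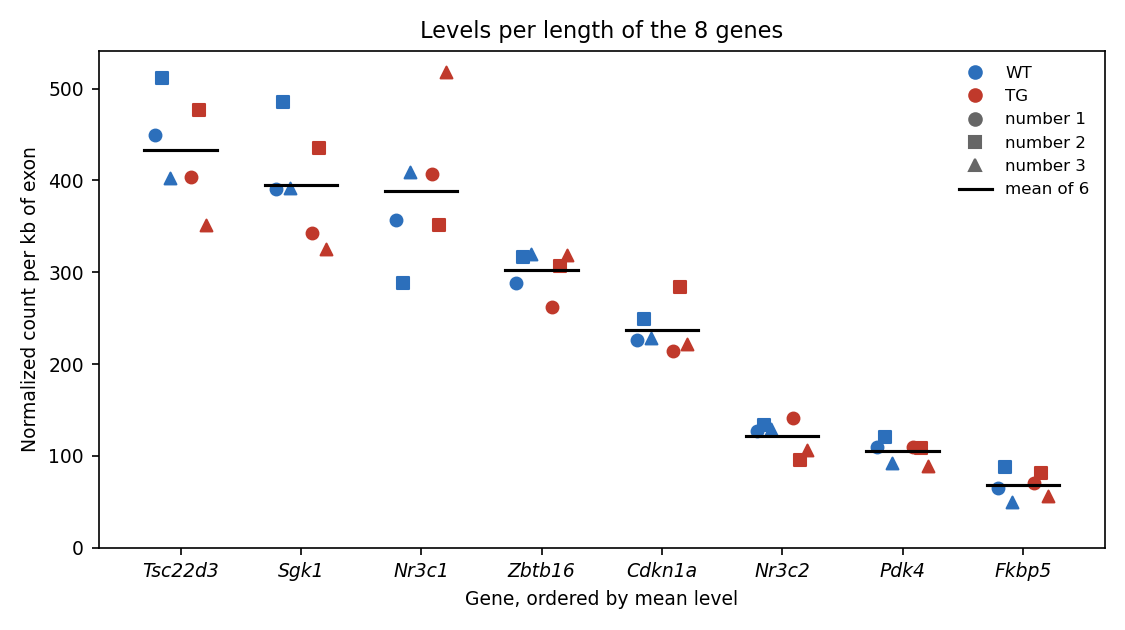
Normalized count per kb of exon (vertical axis) of the 8 genes, ordered by their mean over 6 libraries (black line), with WT libraries in blue, TG libraries in red and the replicate number as the marker shape. *Tsc22d3*, *Sgk1* and *Nr3c1* have the highest means and overlap, *Zbtb16* overlaps *Nr3c1*, and *Fkbp5* is lowest, between 50.1 and 87.6.

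*Nr3c1* (ENSMUSG00000024431, GRCm38 chromosome 18, 39410545 to 39519421, minus strand) was measured at 2739.6, 2215 and 3146 normalized counts in WT-1 to WT-3 and at 3125, 2704 and 3979 in TG-1 to TG-3. The genotypes overlapped, since TG-2 lay below WT-1 and WT-3, yet the TG library was above the WT library of the same number each time. TG minus WT was 0.19, 0.29 and 0.34 on the log2 scale at numbers 1, 2 and 3. The means were 3269 ± 649.6 in TG and 2700.3 ± 467 in WT (SD, n = 3 each), a log2 fold change of 0.27 with a 95% interval of -0.12 to 0.66. This difference did not pass the test (unadjusted p = 0.148, limma), and it was 0.12 without TG-3 and 0.14 without WT-2. Blocking on the replicate number gave an unadjusted p of 0.00117 and an adjusted p of 0.436, so the difference was not called in that fit either.

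*Nr3c2* (ENSMUSG00000031618, chromosome 8, 76899442 to 77245012, plus strand) showed another pattern. The 3 WT libraries were close together at 820.4, 864 and 835 normalized counts, and the TG libraries spread around them at 915, 617 and 689.9. TG-1 was therefore the highest of the 6 and TG-2 and TG-3 the lowest. The means were 741 ± 156 in TG and 839.8 ± 22.1 in WT (SD, n = 3 each), and the log2 fold change of -0.20 (95% interval -0.53 to 0.13) did not pass the test (unadjusted p = 0.198, limma). Without TG-1 it was -0.36 and its unadjusted p was 0.0106, and without TG-2 it was -0.08. An antisense transcript, Gm10649, shares 247 exonic bases with *Nr3c2* on the opposite strand and was not a row of the table.

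*Sgk1* (ENSMUSG00000019970, chromosome 10, 21882184 to 21999903, plus strand) was lower in TG at each replicate number. It read 1913, 2380.3 and 1922 normalized counts in WT-1 to WT-3 and 1679, 2136 and 1593 in TG-1 to TG-3. The groups overlapped because TG-2 exceeded WT-1 and WT-3. The means were 1803 ± 292 in TG and 2072 ± 267 in WT (SD, n = 3 each), a log2 fold change of -0.21 (95% interval -0.52 to 0.11, unadjusted p = 0.171, limma). It was -0.10 without WT-2, -0.12 without TG-3 and -0.33 without TG-2. Blocking on the replicate number gave an unadjusted p of 0.00683 and an adjusted p of 0.630.

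*Sgk1* was also the only one of the 6 genes with RefSeq promoter windows (GRCm38.p6, 250 bases before to 50 after a start, 14 windows in all) that held the spaced inverted repeat bound by glucocorticoid receptor pairs. The search used GNACANNNTGTNC, which is its own reverse complement, and its single arm AGAACA on both strands (TGTTCT as its complement), and the single-arm site can overlap the repeat. The windows had no entry for *Nr3c1* and *Zbtb16*. The window with the match is printed because it carries the repeat 188 bases before one of the annotated starts of *Sgk1*, at chr10:21993702-21993714, on the plus strand, with the repeat and 3 single-arm sites in capitals.
Sgk1 chr10:21993640-21993939 plus strand: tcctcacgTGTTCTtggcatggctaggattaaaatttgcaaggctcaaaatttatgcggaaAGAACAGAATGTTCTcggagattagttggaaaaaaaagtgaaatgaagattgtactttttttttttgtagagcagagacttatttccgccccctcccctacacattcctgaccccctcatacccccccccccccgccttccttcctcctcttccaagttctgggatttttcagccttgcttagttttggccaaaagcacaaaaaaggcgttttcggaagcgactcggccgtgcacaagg
The repeat was found in 156 of all 32851 windows (0.475%) and the single-arm site in 6233 (19%). *Tsc22d3* held 1 single-arm site, and the windows of *Nr3c2*, *Fkbp5*, *Cdkn1a* and *Pdk4* held none of these letters. A match is a description of the letters and was not measured as a bound site, and the table does not tell which start of *Sgk1* the reads came from.

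*Tsc22d3* (ENSMUSG00000031431, chromosome X, 140539528 to 140600659, minus strand) followed *Sgk1* closely across the libraries. Its normalized counts were 1952, 2222 and 1749.5 in WT-1 to WT-3 and 1751, 2068 and 1527 in TG-1 to TG-3. TG was lower at each number, by 0.16, 0.10 and 0.20 on the log2 scale, while TG-2 exceeded WT-1 and the groups overlapped. The means were 1782 ± 272 in TG and 1974 ± 237 in WT (SD, n = 3 each), with a log2 fold change of -0.15 (95% interval -0.46 to 0.15, unadjusted p = 0.285, limma). It was -0.05 without TG-3, -0.06 without WT-2, -0.24 without WT-3 and -0.26 without TG-2. In the blocked fit the unadjusted p was 0.0269 and the adjusted p 0.933.

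*Fkbp5* (ENSMUSG00000024222, chromosome 17, 28399094 to 28517527, minus strand), the gene whose product feeds back on the receptor, differed little between genotypes and widely within each. It read 615, 829.8 and 474 normalized counts in WT-1 to WT-3 and 669.6, 775 and 532 in TG-1 to TG-3, so all TG values lay inside the WT range. The means were 659 ± 122 in TG and 639.7 ± 179 in WT (SD, n = 3 each). The log2 fold change was 0.06 with a 95% interval of -0.44 to 0.56, the widest of the 8 genes (unadjusted p = 0.777, limma). Its sign rested on single libraries, at -0.13 without WT-3, -0.06 without TG-2, 0.21 without TG-3 and 0.27 without WT-2.

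The 3 other responsive genes also overlapped between genotypes. *Zbtb16* (ENSMUSG00000066687, chromosome 9, 48654297 to 48836222, minus strand) read 1524, 1672 and 1692 normalized counts in WT-1 to WT-3 and 1385, 1619.9 and 1686 in TG-1 to TG-3. It was the steadiest of the 8 genes, its highest library being 1.22 times its lowest, and its log2 fold change was -0.06 (95% interval -0.29 to 0.16). *Cdkn1a* (ENSMUSG00000023067, chromosome 17, 29090976 to 29100727, plus strand) read 805, 886 and 812 in WT-1 to WT-3 and 763, 1007 and 787 in TG-1 to TG-3. TG-2 was its highest library and TG-1 its lowest, and the log2 fold change was 0.02 (95% interval -0.26 to 0.30). A transcript on the other strand, AC167363.2, shares 273 exonic bases with it and was not a row of the table. *Pdk4* (ENSMUSG00000019577, chromosome 6, 5483351 to 5496309, minus strand) read 384, 425 and 324 in WT-1 to WT-3 and 384, 382 and 312 in TG-1 to TG-3, with a log2 fold change of -0.07 (95% interval -0.39 to 0.25). None of these 3 genes passed the test (unadjusted p = 0.534, 0.868 and 0.636, limma), and each changed sign when a single library was left out: TG-1 for *Zbtb16*, TG-2 or WT-1 for *Cdkn1a*, and TG-3 or WT-2 for *Pdk4*.

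**Figure D2:**
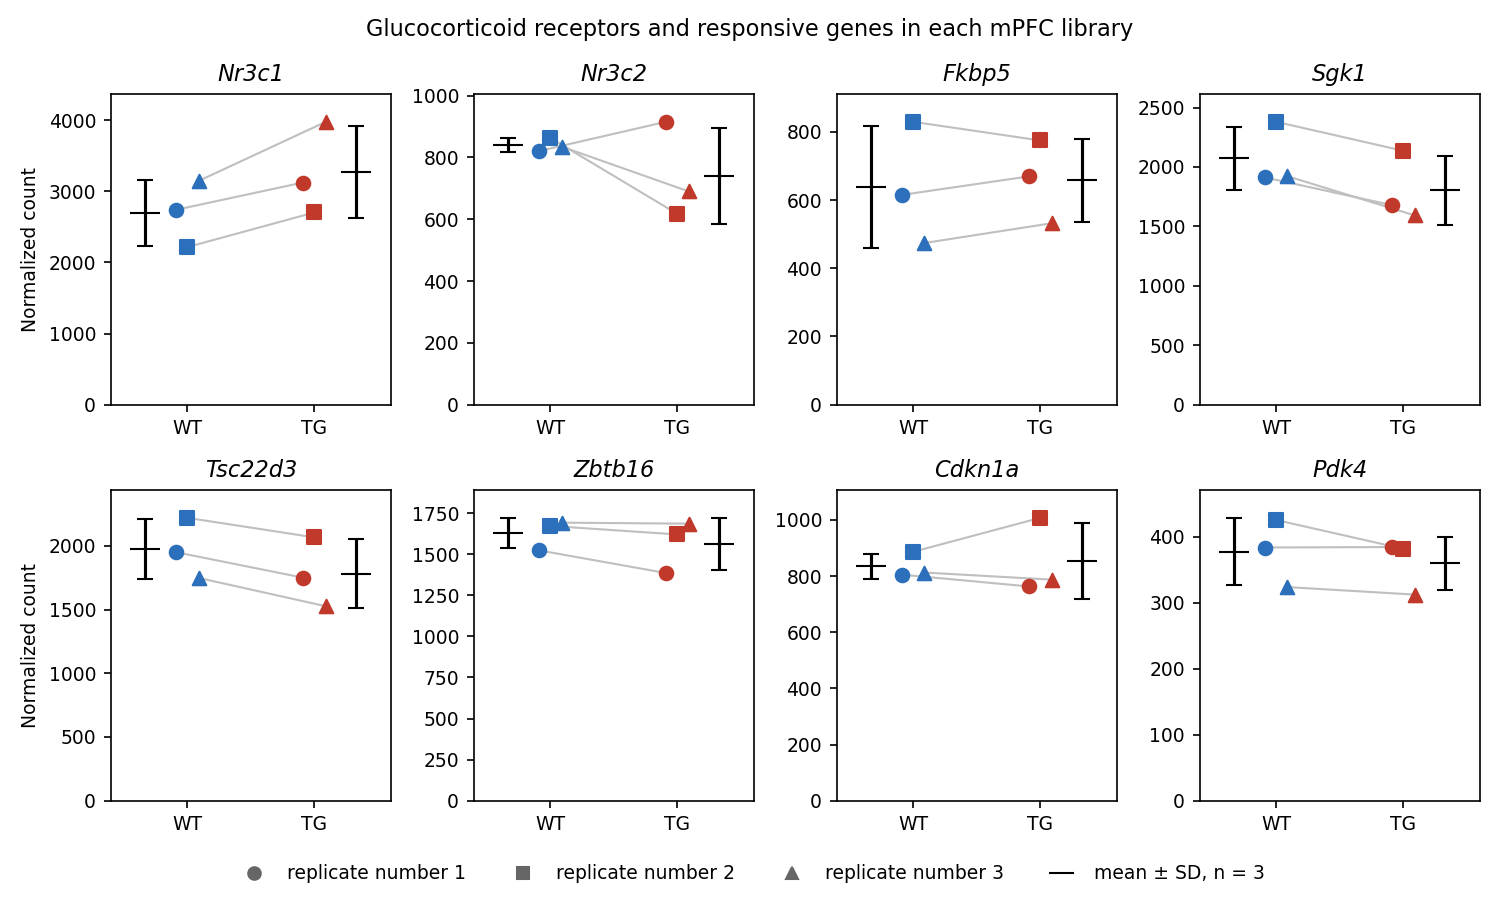
DESeq2 normalized count (vertical axis, from 0) of each gene in the WT (blue) and TG (red) libraries, with same-numbered libraries joined by a grey line and the mean ± SD of 3 libraries in black. All 8 genes overlap between genotypes, and in *Nr3c1*, *Fkbp5*, *Tsc22d3*, *Zbtb16* and *Cdkn1a* the libraries keep the same order of replicate numbers in both genotypes.

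Set against all genes, the genotype comparison in limma called none of the 8 members, at an adjusted p of 1.00 each, and 0% of the 16714 genes tested. At an unadjusted p under 0.05, 336 genes (2.01%) and 0 members passed. In the blocked fit that level was passed by 833 genes (4.98%) and by 3 of the 8 members, *Nr3c1*, *Sgk1* and *Tsc22d3*, none of them after adjustment. The groups did not overlap for 6.02% of genes and for 0 members. TG was higher at each number for *Nr3c1* alone of the 8, against 11.6% of genes, and lower at each number for *Sgk1*, *Tsc22d3* and *Zbtb16*, against 13.2% of genes. An exact permutation test on 3 against 3 libraries has 0.1 as its smallest two-sided p, and the members' values ran from 0.3 to 1. The members' median log2 fold change was -0.07 and that of all genes -0.004. A p that misses the threshold does not show that the genotypes were alike. The intervals above, from the fit without the block, leave room for differences of up to 0.66 on the log2 scale for *Nr3c1* and down to -0.53 for *Nr3c2*. In the blocked fit the SE was smaller, at 0.056 against 0.169 for *Nr3c1* and 0.114 against 0.143 for *Nr3c2*. It was 0.057 against 0.136 for *Sgk1* and 0.057 against 0.132 for *Tsc22d3*.

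**Figure D3:**
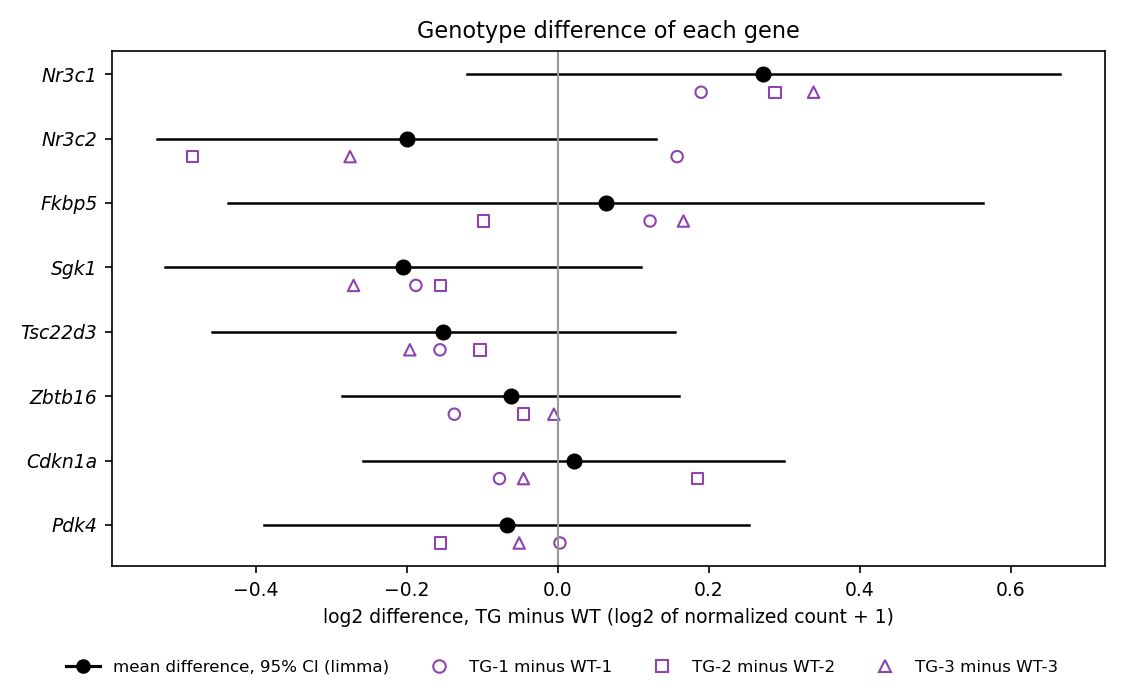
Log2 difference between TG and WT of each gene (horizontal axis), with the limma estimate and its 95% interval in black and the difference at each replicate number as an open purple marker. All 8 intervals, from the fit without the block, cross 0, while the 3 markers lie on one side of 0 for *Nr3c1*, *Sgk1*, *Tsc22d3* and *Zbtb16*.

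The rest of the pathway was read from lists of genes, and 0 genes of any list were called between genotypes. Of the genes that supply or clear the ligand, 4 of the 6 listed could be tested. *Srd5a1*, which reduces steroids, came nearest to a difference (log2 fold change -0.21, unadjusted p = 0.115, limma). *Hsd11b1*, which regenerates active glucocorticoid inside cells, had a log2 fold change of 0.03, and *Abcb1a*, an efflux pump that limits the entry of some steroids into the brain, one of -0.001. Of the corticotropin-releasing hormone system, 5 of 8 listed genes could be tested and 4 had higher means in TG. *Crh* itself read between 128 and 192 normalized counts (log2 fold change -0.16), and the receptor gene *Crhr1* between 864 and 973 (0.05). *Crhr2* was low, at 14.8, 15.2 and 24.6 in TG-1 to TG-3 and 11.2, 11.3 and 10.2 in WT-1 to WT-3, without overlap (log2 fold change 0.66, unadjusted p = 0.0805, limma). The 14 chaperones and cofactors that fold the receptor had a median log2 fold change of -0.06, and the 16 coregulators one of 0.004. Among 12 paralogues of the members, such as *Pdk2* (0.09) and *Sgk2* (-0.24), the median was -0.03. In each of these 5 lists 0 genes had an unadjusted p under 0.05, against 2.01% of all genes.

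The 32 other glucocorticoid-responsive genes leaned to lower values in TG without passing the test. Their median log2 fold change was -0.07, and 22 of 32 (68.8%) were lower, compared with 51.4% of all genes. At each number TG was lower for 8 of them (25%) and higher for 3, against 13.2% and 11.6% of all genes. *Plin4*, a lipid droplet protein, came nearest to a difference (log2 fold change -0.44, unadjusted p = 0.120, limma). *Arl4d*, a small GTPase, followed, and its groups did not overlap (-0.15, unadjusted p = 0.122, limma). The most abundant, the glutamine synthetase gene *Glul* of astrocytes, had a log2 fold change of -0.02. In the blocked fit 1 of the 32 had an unadjusted p under 0.05, against 4.98% of all genes. It was the arrestin-domain gene *Arrdc2* (-0.30), named here after its values were seen. Its genotype fit without the block gave an unadjusted p = 0.289, limma, and the blocked fit an unadjusted p = 0.0102, limma, with an adjusted p of 0.745.

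Some lists of cell type markers leaned to one side between genotypes in the same libraries, with 0 of their genes called. The 10 markers of oligodendrocytes, a cell type known to express *Sgk1*, were all lower in TG (median log2 fold change -0.44), and 9 of the 10 had an unadjusted p under 0.05, against 2.01% of all genes. Their summed level was between 76088 and 98684 normalized counts in TG and between 113307 and 115340 in WT. Of the TG libraries, TG-2 had the most *Sgk1* and the highest sum, and of the WT libraries, WT-2 had the most *Sgk1* and the lowest sum (113307). The 7 leptomeningeal markers were all higher in TG (median 0.24, sums 3889 to 4570.0 in TG and 3414 to 3826 in WT, 3 with an unadjusted p under 0.05), and so were the 5 blood markers (median 0.17, sums 6909 to 10646 and 6013 to 9643, 1 with an unadjusted p under 0.05). Of the 7 choroid plexus markers 6 could be tested, with a median of 0.25 and 2 of them lower in TG. The sums of all 7 overlapped between genotypes (152 to 615 in TG and 131 to 202 in WT). Among them *Ttr*, which choroid plexus makes in large amounts, read 127, 22.9 and 445 in TG-1 to TG-3 and 14.3, 12.6 and 41.7 in WT-1 to WT-3. The 10 endothelial and 8 astrocyte markers had medians of 0.02 and -0.01. The part of these cell types in the values of *Sgk1*, *Tsc22d3* and *Nr3c1* was not tested.

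Differences between replicate numbers, unlike those between genotypes, passed the test for some of the 8 genes. The F test of the number, in a model with genotype, called *Nr3c1*, *Fkbp5*, *Sgk1* and *Tsc22d3* (adjusted p = 0.00723, 0.0124, 0.0246 and 0.0263, limma), 4 of 8 members against 9.54% of all genes. At an unadjusted p under 0.05 it passed 7 of 8 members, all but *Nr3c2*, and 27.2% of genes. Since the members were chosen with earlier results of these data known, these shares are descriptions and not tests. The spread between the 3 number means on the log2 scale was 0.67 for *Fkbp5*, 0.53 for *Nr3c1*, 0.39 for *Tsc22d3* and 0.37 for *Sgk1*. For the members not called, *Pdk4*, *Zbtb16*, *Cdkn1a* and *Nr3c2*, the adjusted p was 0.134, 0.155, 0.159 and 0.443. These calls needed both libraries numbered 3 and, for 2 genes, TG-2. They also needed the genotype term for 3 genes: without it *Fkbp5* was called (adjusted p = 0.0100, limma), and *Nr3c1*, *Sgk1* and *Tsc22d3* were not (0.0736, 0.0935 and 0.0592). Without TG-3 or without WT-3 none of the 4 members was called, and without TG-2 only *Nr3c1* and *Fkbp5* were. The spreads themselves stayed of similar size: for *Nr3c1*, *Fkbp5*, *Sgk1* and *Tsc22d3* they were 0.48, 0.75, 0.33 and 0.36 without TG-3 and 0.58, 0.60, 0.42 and 0.42 without WT-3. Genes called in all fell from 1595 to 449 without TG-3 and to 246 without WT-3. Without both libraries numbered 3, number 2 against number 1 called 10 genes (0.0601%) and 0 members, while 5 of 8 members and 6.66% of genes had an unadjusted p under 0.05, an alternative chosen after the data had been seen. The spreads were then 0.26, 0.32, 0.33 and 0.21 for the same 4 genes. Without a mean-variance trend in the fit, 32 genes and 0 members were called.

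*Nr3c1* and 3 of the responsive genes moved in opposite directions between numbers. The libraries numbered 2 held the lowest *Nr3c1* of each genotype and the highest *Fkbp5*, *Sgk1*, *Tsc22d3* and *Cdkn1a*. Against the mean of numbers 1 and 3, *Nr3c1* was lower by 0.39 ± 0.06 on the log2 scale (SE; adjusted p = 0.0178, limma). *Fkbp5* was higher by 0.50 ± 0.09 (adjusted p = 0.0302), *Sgk1* by 0.35 ± 0.06 (adjusted p = 0.0311) and *Tsc22d3* by 0.30 ± 0.06 (adjusted p = 0.0482). Among all genes 0.628% were called higher and 1.3% called lower in number 2. These contrasts rest on the pairing by number, which the correlations above showed less clearly for numbers 1 and 2 than for 3. *Cdkn1a* (0.25, adjusted p = 0.160) and *Pdk4* (0.21, adjusted p = 0.296) were not called. Both libraries numbered 2 exceeded the other 4 for 4 members, *Fkbp5*, *Sgk1*, *Tsc22d3* and *Cdkn1a*, against 9.54% of genes, and lay below the other 4 for *Nr3c1* alone, against 9.44%.

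The called genes kept their direction within each genotype taken by itself, which their selection makes likely. The contrast in the preceding paragraph is the mean of the TG and WT differences, and disagreement between them adds to its error. Genes called in that contrast therefore tend to share a sign in TG and WT, so the shared direction is not separate evidence. TG-2 minus the mean of TG-1 and TG-3 was 0.38 for *Fkbp5*, 0.39 for *Sgk1*, 0.34 for *Tsc22d3* and -0.38 for *Nr3c1* on the log2 scale. WT-2 minus the mean of WT-1 and WT-3 was 0.62, 0.31, 0.27 and -0.41 for the same genes. *Nr3c2* differed in sign, at -0.36 in TG and 0.06 in WT. With 1 library per number and genotype these single differences have no error of their own.

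In the libraries numbered 3 the order was turned round. *Nr3c1* was higher than in numbers 1 and 2 by 0.40 ± 0.06 (SE; adjusted p = 0.00410, limma), *Fkbp5* was lower (-0.51 ± 0.09, adjusted p = 0.00723) and *Tsc22d3* was lower (-0.28 ± 0.06, adjusted p = 0.0176). *Pdk4* (-0.31, adjusted p = 0.0584) and *Sgk1* (-0.20, adjusted p = 0.0587) did not pass. In this contrast 8.65% of all genes were called higher and 7.32% lower, so calls were common. Both libraries numbered 3 exceeded the other 4 for *Nr3c1* and *Zbtb16* (20.3% of genes) and lay below them for *Fkbp5*, *Tsc22d3* and *Pdk4* (20.6% of genes). The contrasts for numbers 2 and 3 share libraries, and the differences of the 3 numbers sum to 0, so a gene high in one tends to be low in another by construction.

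The 32 other responsive genes did not share one direction. The F test called 7 of them (21.9%, against 9.54% of genes), *Klf9*, *Dusp1*, *Mt1*, *Mt2*, *Arrdc2*, *Tob2* and *Txnip*, of which the last 5 were named after their values were seen. *Arrdc2* had the order of *Fkbp5*. It read 384 and 473 normalized counts in TG-2 and WT-2, against 214 to 315 in the other 4 libraries, and was higher in number 2 by 0.69 (adjusted p = 0.0128, limma). *Txnip*, an inhibitor of thioredoxin, was lowest in both libraries numbered 3 (-0.40, adjusted p = 0.0210). *Dusp1*, a phosphatase of MAP kinases that neuronal activity also induces, had the order of *Nr3c1*. It read 1369.8 and 1479.8 in TG-2 and WT-2, 1695 and 1568 in TG-1 and WT-1, and 2697 and 2381 in TG-3 and WT-3. The metallothionein genes *Mt1* and *Mt2*, which bind zinc and copper, followed it, lower in number 2 by 0.41 and 0.45 on the log2 scale and higher in number 3 by 0.51 and 0.70. *Klf9*, a transcription factor induced by glucocorticoid and thyroid hormone, was higher in number 3 by 0.81 (adjusted p = 0.000176) and ran from 4698 in WT-1 to 9316 in WT-3. *Per1*, a clock gene that also responds to glucocorticoids, was higher in number 3 by 0.25 (adjusted p = 0.0385), but its F test was not called (adjusted p = 0.0887), and it is named after its values were seen. The median of the list was 0.07 for number 2 and 0.01 for number 3.

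**Figure D4:**
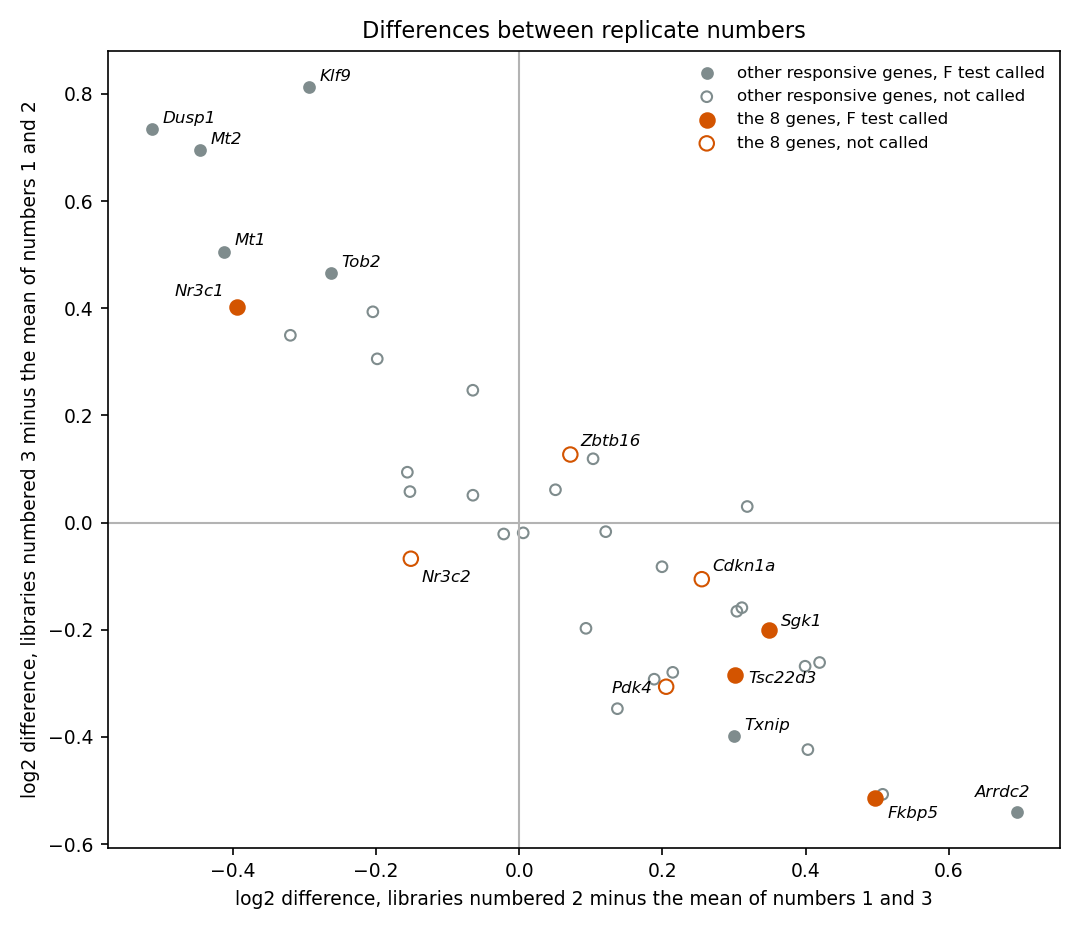
Log2 difference of the libraries numbered 2 (horizontal axis) and numbered 3 (vertical axis) from the mean of the other numbers, for the 8 genes (orange) and 31 other responsive genes (grey), filled where the F test of the number was called. *Fkbp5*, *Sgk1* and *Tsc22d3* lie at the lower right with *Arrdc2* and *Txnip*, and *Nr3c1* lies at the upper left with *Dusp1*, *Mt1*, *Mt2*, *Klf9* and *Tob2*; *Lcn2*, at -1.29 and 1.68, is outside the plot.

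The spaced inverted repeat occurred in promoter windows of 4 of the 28 other responsive genes with windows (14.3%, against 0.537% of all 27025 genes with windows). These are shown beside the *Sgk1* match to compare the letters, with the repeat in capitals. Each is written on the strand of its gene, which for *Fam107a* is the minus strand. *Map3k6* and *Txnip* are named for the match.
Sgk1 chr10:21993702-21993714: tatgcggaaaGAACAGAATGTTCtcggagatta
Mt1 chr8:94178995-94179007: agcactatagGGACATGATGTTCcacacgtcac
Map3k6 chr4:133240637-133240649: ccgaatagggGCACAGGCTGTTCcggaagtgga
Fam107a chr14:8309885-8309897: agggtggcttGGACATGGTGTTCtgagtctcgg
Txnip chr3:96557785-96557797: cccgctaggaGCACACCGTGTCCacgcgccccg
Genes with the repeat did not share one direction between numbers. *Sgk1* was higher in number 2 by 0.35 on the log2 scale and *Mt1* was lower by 0.41. *Txnip* was at 0.30 in number 2 without passing (adjusted p = 0.135, limma). *Map3k6*, a kinase of the MAP kinase cascade, was at 0.40 and *Fam107a*, a stress-response gene that binds actin, at 0.09, and neither passed the test (adjusted p = 0.266 and 0.487, limma).

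Other genes of the receptor machinery moved with the number as well. Of the 14 chaperones and cofactors the F test called 3 (21.4%, against 9.54% of genes). *Hsp90ab1*, the heat shock protein 90 that holds the receptor, was higher in number 3 by 0.39 (adjusted p = 0.00983, limma), and *Ptges3*, its p23 cochaperone, lower (-0.35, adjusted p = 0.0104). *Fkbp4*, which competes with FKBP5 for the same complex, was lower in number 3 (-0.24, adjusted p = 0.0272) with an F test that was not called (adjusted p = 0.0721). Of the 16 coregulators the F test called 4 (25%, against 9.54%), and number 3 was called higher for 5 and lower for 0, against 8.65% and 7.32% of genes. *Ncor1*, a corepressor, read 11402 and 12314 normalized counts in TG-3 and WT-3 against 6139 to 6834 in the other 4 libraries. *Crh*, *Hsd11b1* and the other tested genes of hormone supply and the corticotropin-releasing hormone system were not called by the F test.

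Activity, clock and blood genes also moved with the number. All 10 immediate-early genes were higher in both libraries numbered 3 than in the other 4 (20.3% of all genes), with a median of 0.52, and had a median of -0.40 in number 2. The F test called 7 of them, against 9.54% of genes. The summed level of the 5 blood markers was 10646 and 9643 normalized counts in TG-3 and WT-3, 8397 and 8082 in TG-1 and WT-1, and 6909 and 6013 in TG-2 and WT-2, the same order as *Nr3c1* and the reverse of *Fkbp5*. The F test called 4 of the 5 (80%, against 9.54%), and not each followed that order: *Hba-a1* read highest in number 1 in both genotypes (2072 and 2004), and *Alas2* had a difference of -0.11 in number 3 and was not called. Of the 14 clock genes the F test called 4 (28.6%, against 9.54%), and number 3 was called higher for 4 and lower for 3, against 8.65% and 7.32% of genes. *Hlf* and *Ciart* were higher in number 3 by 0.51 and 0.60 (adjusted p = 0.00369 and 0.00351, limma). The 3 called lower, named after their values were seen, were *Nr1d2*, *Arntl* and *Clock*, with differences of -0.33, -0.31 and -0.26. Markers of astrocytes, mural cells, endothelial cells and microglia had medians of -0.26, -0.28, -0.21 and -0.18 in number 3. In that contrast 5 of 8, 1 of 8, 2 of 10 and 3 of 8 of them were called lower, against 7.32% of genes, and 1, the endothelial *Pecam1*, was called higher (1.74). The 7 leptomeningeal markers had a median of -0.24 with 1 called lower, and the 10 oligodendrocyte markers one of 0.07 with 1 called lower, *Mbp* (-0.35, adjusted p = 0.0339, limma). Other lists had medians on the side of *Nr3c1* or near 0: 0.50 for the 6 choroid plexus markers, 0.16 for the 6 of excitatory neurons and -0.02 for the 7 of inhibitory neurons, each with 1 called higher, against 8.65% of genes. The choroid plexus gene was *Ttr* (2.29, adjusted p = 0.0156, limma). The part of any of these in the members' differences between numbers was not tested.

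The similarity of the 8 profiles was described by the root-mean-square (RMS) difference of their centred log2 levels over the 6 libraries. *Sgk1* and *Tsc22d3* were the closest of the 28 pairs (0.07), followed by *Tsc22d3* and *Pdk4* (0.09). *Nr3c1* and *Fkbp5* were the farthest apart (0.51), and the 5 largest distances all involved *Nr3c1*. These distances are over 6 libraries, of which those with the same number resemble each other across the whole table, and no test was made.

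The nearest profiles were sought among the 13455 genes that averaged 50 normalized counts or more. *Mrgpre* (RMS 0.03) and *Zdhhc12* (0.05) were nearest to *Nr3c1*. *Kctd8* and *Peg12* (0.05 and 0.07) were nearest to *Nr3c2*. For *Fkbp5* they were *Tank* (0.05), a regulator of NF-kappaB signalling, and *Creb3* (0.06), a membrane-bound transcription factor. *Tank* read 797 and 840.5 normalized counts in TG-2 and WT-2 and 572 and 522 in TG-3 and WT-3. For *Sgk1* they were *Usp29* and *Morf4l2* (0.04 each). For *Tsc22d3* they were *Tsga10* and *Prpf39* (0.04 each), the latter a pre-mRNA splicing factor. *Rbm6* and *Igsf9b* (0.02 and 0.03) were nearest to *Zbtb16*, *Ackr3* and *Slc2a4rg-ps* (0.04 each) to *Cdkn1a*, and *Fbxo11* and *Hnrnpk* (0.02 each) to *Pdk4*. None of these 16 genes was another member or one of the 32 other responsive genes.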

How the data were processed

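RNA sequencing of the mPFC was analysed from the table that the authors deposited. By the submitters' processing notes and the study's methods, the authors quantified stranded mRNA libraries with Salmon 0.9.1 on GRCm38, correcting for GC bias. The authors then summed transcripts to genes with tximport (R 3.6.0) and scaled each library by its DESeq2 1.19.11 size factor. The values that the authors deposited are the resulting signal (normalized counts) of 18254 genes in 6 libraries. They are not whole numbers, so no counting error was computed and the read depth was not used.

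Symbols and positions came from GENCODE M21 (GRCm38), which held 18231 of the genes. The 16714 genes that averaged 5 normalized counts or more were tested in R 4.3.3 with limma 3.58.1 on log2(normalized count + 1), with eBayes and a mean-variance trend, two-sided, and fold changes are on this scale. P-values were adjusted over all tested genes by Benjamini-Hochberg and called under 0.05. The model held genotype alone. A second model with genotype and replicate number gave the blocked test, the F test of the number and each number against the mean of the other 2. Each number has 2 libraries, 1 of each genotype. The fits were tested on simulated data for recovery of planted fold changes. Libraries were simulated as independent, without shared deviations of a number, so the simulation is no check of the p-values. Replicates are pools of 2 mice and p-values measure the spread between pools.

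The numbers were taken to pair the libraries because deviations from the genotype mean correlated across genes at 0.30, 0.33 and 0.62 for TG and WT libraries numbered 1, 2 and 3, and at most 0.27 for other combinations. Numbers 1 and 2 were little told apart, at 0.27 for TG-1 with WT-2 and 0.23 for TG-2 with WT-1. The correlations come from these same data, and genes are not independent replicates.

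The members and the lists were chosen with earlier results of these data known. The text names the members, *Shank3*, and per list at most the 2 most abundant genes, the 2 with the smallest genotype p and the 2 with the smallest p of the number, and the 2 nearest genes per member. Other names are said to be chosen later. Lists were not tested as sets. Promoter windows are from RefSeq (GRCm38.p6).

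Alternatives changed 1 choice each: no filter on low values or one at 50, a pseudocount of 0.1 or of 5, upper quartile rescaling, quantile normalization, eBayes without a trend or with the robust option, the block, an empirical null for the genotype test, no genotype term for the number test, and leaving out each library or both libraries numbered 3, the last added for the number test after the data had been seen.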

Additional observations from a re-analysis of the deposited data

How the results depend on the processing

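The 8 genes were not called between genotypes under any of the 17 alternatives, with the replicate block (0 of 8) among them. The number of genes called between genotypes was 0 in the reported fit and 1 with the robust option, 1 with the replicate block, 26 with an empirical null (13 higher and 13 lower) and 1 without both libraries numbered 3, and it was 0 to 1 when single libraries were left out. The block changed no call of a member. Leaving out single libraries turned the sign of the log2 fold change for *Zbtb16* (-0.12 to 0.0219), *Fkbp5* (-0.13 to 0.27), *Cdkn1a* (-0.11 to 0.0949) and *Pdk4* (-0.17 to 0.0297), whereas *Nr3c1* (0.12 to 0.40), *Nr3c2* (-0.36 to -0.08), *Sgk1* (-0.33 to -0.10) and *Tsc22d3* (-0.26 to -0.05) kept theirs under all 17.

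The replicate number called 1595 genes, 32 without a trend, 10 without both libraries numbered 3 and between 246 and 2252 when single libraries were left out. Members called by number were 4 in the reported fit, 0 without a trend, 1 with no genotype term, 0 without both libraries numbered 3 and 0 to 4 without single libraries. Pseudocount, filter, scaling and the robust option changed none of the members' calls. The cause of these changes was not tested. With 3 pools a genotype the intervals of the fit without the block reach 0.66 on the log2 scale, and outliers in groups of 3 were not tested.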
